A study of Homo sapiens with 6 samples.

Results

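The genes described here build, store or recycle the thyroid hormone precursor: TG, TSHR, SLC5A5, SLC26A4, DUOX1, DUOX2, DUOXA1, DUOXA2 and IYD, 9 of the 19974 protein-coding genes that RefSeq places on chromosomes 1 to 22 and X. They are grouped by their function, and every peak in them or within 100 kb was taken from each list. The cells were Nthy-ORI, a line labelled as normal thyroid epithelium, and open chromatin was mapped by ATAC-seq, which uses the Tn5 transposase to cut and tag accessible DNA. The 6 samples formed 3 groups of 2: 10 nM T3 (triiodothyronine, the active thyroid hormone) for 24 h, 10 nM T3 for 6 h, and NaOH vehicle, labelled 6 h. All cells had first been kept without hormone for 24 h in medium with charcoal-stripped serum, so every group is starved cells of 1 line. For every group the authors deposited 1 list of peaks that both replicates supported. With no 24 h vehicle analysed here, the hormone and the longer time cannot be told apart. Whether a group's replicates were separate cultures is not labelled, and a peak does not tell a site open in more cells from a site cut more often per cell.

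Follicular cells make thyroid hormone in steps. Thyrotropin binds its receptor TSHR on the basal membrane, the sodium iodide symporter SLC5A5 draws iodide into the cell, and the anion exchanger SLC26A4 (pendrin) helps to pass it to the follicle lumen. There the dual oxidases DUOX1 and DUOX2, which need the maturation factors DUOXA1 and DUOXA2, supply hydrogen peroxide for the iodination of thyroglobulin, the protein encoded by TG. The deiodinase IYD returns iodide from the iodotyrosines left when thyroglobulin is cleaved.

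The lists differed in length, with 60661 peaks for T3 24 h, 12385 for T3 6 h and 7103 for vehicle, and in agreement between replicates. The median distance between the replicate summits of a peak was 46 bp in the T3 24 h list, 222 bp in the T3 6 h list and 180 bp in the vehicle list. The read depth behind each list is unknown, and with 1 list per group no comparison between groups carries a test or an error. Every count of the 9 genes is therefore set beside the share of all protein-coding genes with such a peak in the same list, and a gene without a listed peak is not shown to be closed. The signal of a peak is the authors' value, the sum of both replicates, and it was ranked only within its own list: rank percentile 100 is the strongest peak.

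Of the 3 lists, the T3 24 h list alone had peaks at the ends of these genes. A gene end here is a peak position, the mean of both replicate summits, within 1 kb of either boundary of the gene. In the T3 24 h list 4 of the 9 genes had such a peak, SLC26A4, TSHR, DUOXA2 and DUOXA1, where 60.8% of all protein-coding genes did. The last pair share a single peak at their transcription ends. In the T3 6 h list none of the 9 had one, where 10.8% of all genes did, and in the vehicle list none had one, where 1.34% did. With 9 genes, a count of 0 beside shares this low cannot be read as a difference from all genes. The same 4 genes thus had a gene-end peak at T3 24 h and none in vehicle, a state shared by 59.7% of all genes, and none at T3 6 h, a state shared by 50.5%. No gene of the 9 had one at T3 6 h and none in vehicle, where 10.3% of all genes did. In the reverse directions the 9 genes also had none: 0.225% of all genes had a gene-end peak in vehicle and none at T3 24 h, 0.846% in vehicle and none at T3 6 h, and 0.551% at T3 6 h and none at T3 24 h. With every list cut to its 7103 strongest peaks, the length of the vehicle list, TSHR alone kept a gene-end peak at T3 24 h (1 of 9, against 16.6% of all genes), and the 9 genes had none at T3 6 h (6.26%) or in vehicle (1.34%).

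Peaks inside the genes were in both T3 lists and not in the vehicle list. A peak over 1 kb from both boundaries lay in 7 of the 9 genes in the T3 24 h list, against 42.4% of all protein-coding genes. In the T3 6 h list IYD, SLC26A4 and TG held 1 or more, 3 of 9 against 13.2% of all genes. In the vehicle list no gene of the 9 held one, against 6.94% of all genes, a share too low for 0 of 9 to be read as a difference. DUOXA2 and DUOXA1, the shortest members at 4.1 and 12.5 kb, were the ones with no inner peak in any list. Longer genes held inner peaks more often. Among genes within 25% of the length of TG, 87% had an inner peak at T3 24 h, 44.8% at T3 6 h and 26.7% in vehicle, and for the length of TSHR the shares were 83.1% at T3 24 h, 37.3% at T3 6 h and 21.4% in vehicle. For IYD they were 48.8% at T3 24 h, 11.7% at T3 6 h and 4.84% in vehicle, and for DUOXA2 8.7% at T3 24 h, 1.58% at T3 6 h and 0.237% in vehicle. For SLC26A4 they were 61.8% at T3 24 h, 16.4% at T3 6 h and 7.89% in vehicle. At T3 24 h the share was 48.4% for DUOX1, 39.5% for SLC5A5, 37.1% for DUOX2 and 26.7% for DUOXA1. The 9 genes ran from 4.1 to 268 kb, with a median protein-coding gene at 24.2 kb, and the part of length in their inner count was not tested. In lists of equal length the inner count was 2 of 9 at T3 24 h (8.46% of all genes), 1 of 9 at T3 6 h (7.97%) and none in vehicle (6.94%). Within 100 kb, all 9 genes had a peak in the T3 24 h list (97.6% of all genes) and in the T3 6 h list (66.8%), and 3 of them, SLC26A4, TG and TSHR, in the vehicle list (33.1%). The 4 DUOX genes are neighbours and were counted at T3 6 h through 1 shared peak, so the 9 are not separate hits.

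**Figure D1:**
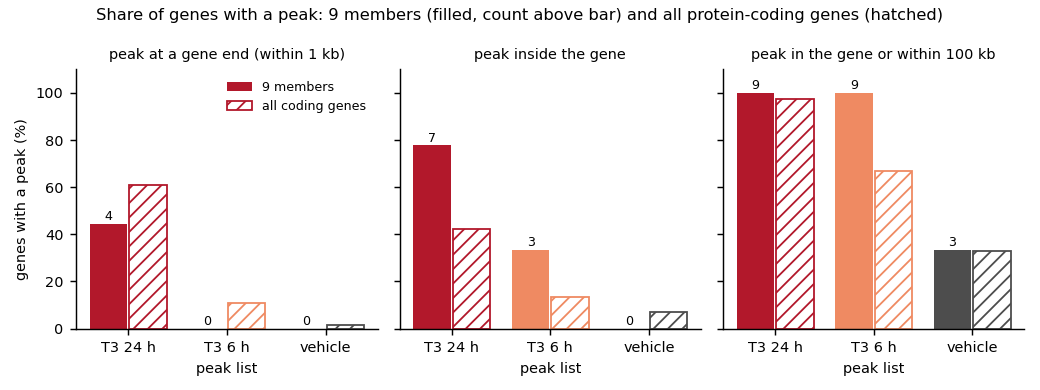
Bars give the percentage of genes with a peak at a gene end, inside the gene, or in the gene or within 100 kb, for the 9 thyroid hormone synthesis genes beside all 19974 protein-coding genes, in the T3 24 h, T3 6 h and vehicle lists. At gene ends 4, 0 and 0 of the 9 genes stand beside 60.8%, 10.8% and 1.34% of all genes, and inside the genes 7, 3 and 0 of 9 beside 42.4%, 13.2% and 6.94%, for T3 24 h, T3 6 h and vehicle.

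Where the RefSeq promoter table gives strand, transcription starts can be told from ends. It holds 7 of the 9 genes. In the T3 24 h list 2 of the 7, SLC26A4 and TSHR, had a peak within 1 kb of a start, where 64.9% of 15812 protein-coding genes did. No gene of the 7 had one at T3 6 h, where 12% of all did, or in vehicle, where 1.3% did. A peak touched the promoter window itself, 250 bases before to 50 after the start, in 1 of the 7 at T3 24 h, SLC26A4, against 63% of all. None was touched at T3 6 h, against 11.5%, or in vehicle, against 1.22%.

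The placing of peaks over each locus is shown in the maps of the 6 loci. Counting each peak once, since the 4 DUOX genes share their surroundings, the loci held 69 peaks in the T3 24 h list, 16 in the T3 6 h list and 4 in the vehicle list. At T3 24 h 3 of these were at an end of a member gene, 21 inside one and 45 in the flanks, of which 12 lay at the end of another protein-coding gene. At T3 6 h none was at an end, 5 were inside and 11 in the flanks, 4 of them at another gene's end. In vehicle all 4 were in the flanks, 1 of them at another gene's end. At the edge of the window, the T3 24 h peak farthest inside lay 99.1 kb from IYD and the nearest outside 101 kb from TSHR, and the T3 6 h peak nearest outside 100.6 kb from TSHR. For the 1 kb limit of a gene end, the peak just inside lay 881 bp from DUOXA1 and the peak just outside 1485.5 bp from DUOX2.

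**Figure D2:**
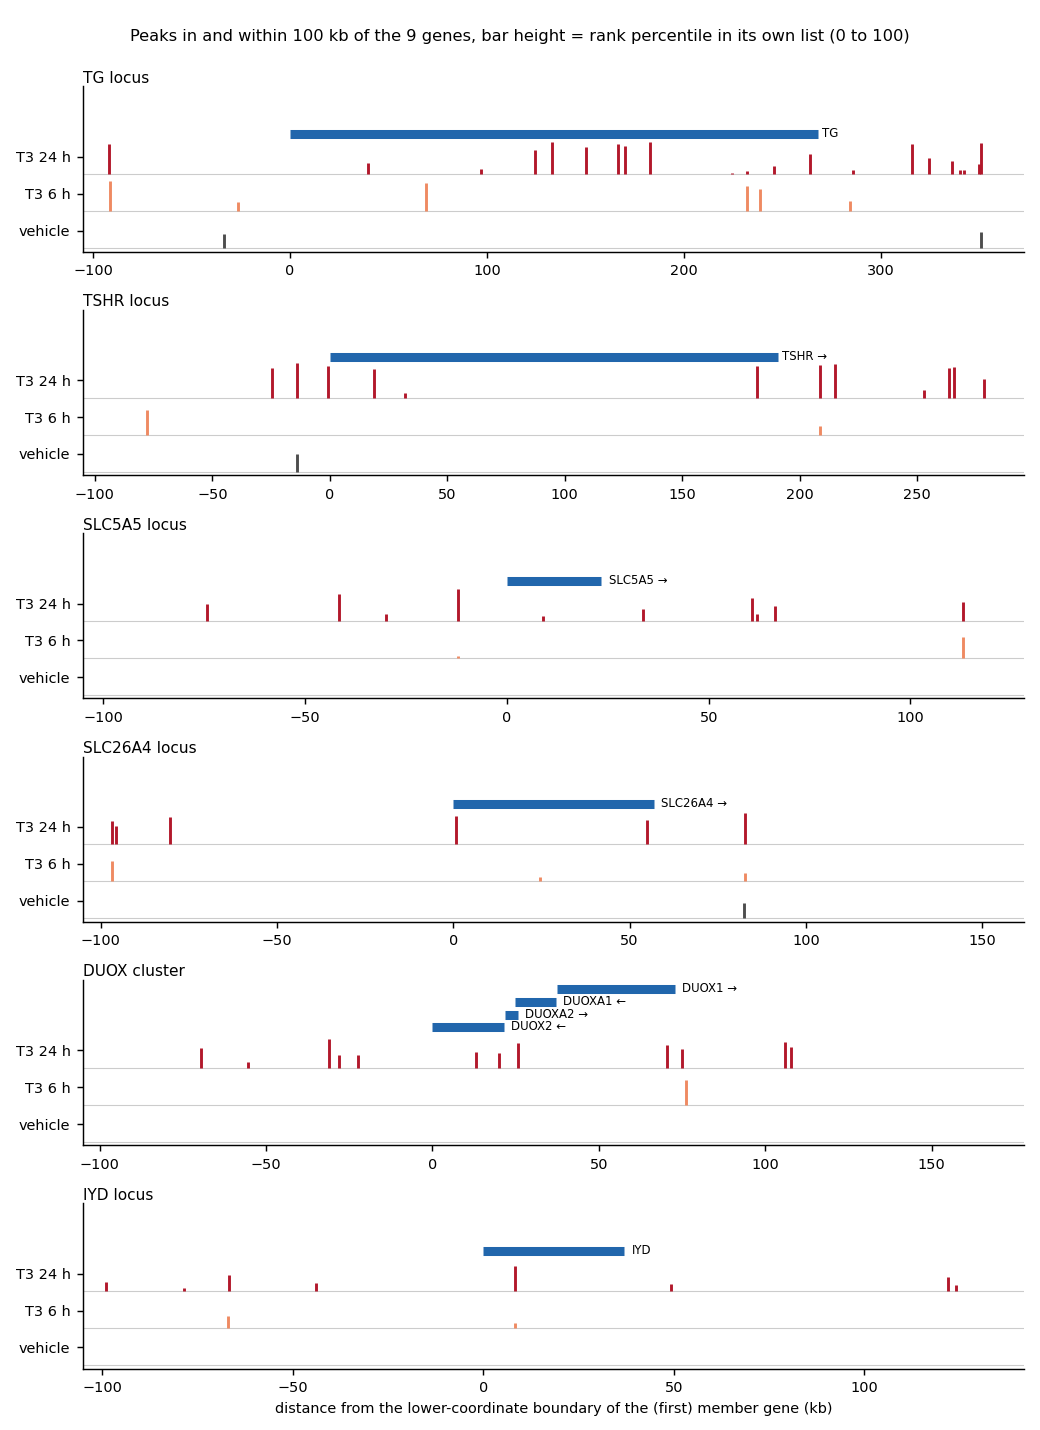
Each panel is a locus, with distance from the lower-coordinate boundary of its first gene in kb on the x axis, genes as blue bars with an arrow where strand is known, and peaks as vertical lines in rows for the T3 24 h, T3 6 h and vehicle lists, their height the rank percentile in their own list. The T3 24 h row holds 69 peaks in all, the T3 6 h row 16 and the vehicle row 4, and the SLC5A5, DUOX and IYD panels have an empty vehicle row.

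TSHR, the thyrotropin receptor, spans chr14:80955621-81146306 on the plus strand. Its T3 24 h gene-end peak, chr14:80954767-80955294, lay 651.5 bp before the start, inside the span of the neighbouring gene CEP128. The signal was 10.1 in the first replicate column and 14.1 in the second, and the sum of 24.2 stood at rank percentile 89.2. The replicate summits were 1 bp apart. Neither the T3 6 h list nor the vehicle list had a peak there, and the nearest to the start were 77.6 kb away at T3 6 h and 14.03 kb away in vehicle.

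The strongest peak of the TSHR locus, and of all 69 at T3 24 h, lay at a RefSeq start of CEP128, a gene for a centriole protein. That start, on the minus strand, is an inner one, 17.8 kb inside the higher-coordinate boundary of the gene. This peak, chr14:80941260-80941987, lay 13.8 kb before the TSHR start and had signals of 18.3 and 21.2 in the replicate columns, with rank percentile 99.6. The vehicle list held the same site, chr14:80941207-80942192, with replicate signals of 3.57 and 6.45 at rank percentile 50.8. The replicate summits were 43 bp apart at T3 24 h and 385 bp apart in vehicle. The T3 6 h list had no peak there.

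The bases before both starts are shown because the window at this inner start of CEP128 was touched by a peak in the T3 24 h and vehicle lists, and the promoter of TSHR in none. They are the 250 bases before the start in the RefSeq promoter table of GRCh38.p14, read 5′ to 3′ on the gene's own strand, TSHR on the plus strand at chr14:80955371-80955620 and CEP128 on the minus strand at chr14:80941739-80941988. Capitals mark AGGTCA, the core hexamer of a thyroid hormone response element, in TSHR and GGGCGG, a GC box, in CEP128.
TSHR: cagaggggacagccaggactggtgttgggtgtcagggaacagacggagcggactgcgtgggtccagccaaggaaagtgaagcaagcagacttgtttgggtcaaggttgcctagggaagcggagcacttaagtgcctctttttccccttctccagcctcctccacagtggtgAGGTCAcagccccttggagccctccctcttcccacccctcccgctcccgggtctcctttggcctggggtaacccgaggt
CEP128: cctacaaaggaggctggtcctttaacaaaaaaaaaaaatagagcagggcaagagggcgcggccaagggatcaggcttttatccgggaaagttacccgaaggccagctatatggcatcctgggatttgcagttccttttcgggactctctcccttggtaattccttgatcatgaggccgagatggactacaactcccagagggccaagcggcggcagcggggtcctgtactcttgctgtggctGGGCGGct

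The hexamer lies at bases 172 to 177 of the TSHR stretch. On either strand it is found in 13.8% of all 35116 RefSeq promoter windows of 300 bases. Its direct repeat with 4 bases between the copies was in no member window and in 0.0199% of all. The T3 24 h peak lies wholly before the printed TSHR stretch.

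Inside TSHR the T3 24 h list had 3 peaks, and the other lists none. The strongest, chr14:81137223-81137635, lay 8.785 kb from the transcription end with replicate signals of 13.2 and 12.3 and rank percentile 91.05. The others had a signal of 20.3 at chr14:80973995-80974938 and of 8.965 at chr14:80987571-80987848, with rank percentiles of 81.4 and 14.55. Beyond the end, the peak chr14:81164228-81164590 had replicate signals of 14.3 and 12.5 at T3 24 h, and its T3 6 h counterpart, chr14:81164177-81164739, had 5.59 and 3.78. Its rank percentile was 92.8 in the T3 24 h list and 25.9 in the T3 6 h list. A peak over a boundary of the antisense RNA gene TSHR-AS1, chr14:81169822-81170832, had a signal of 29.7 at T3 24 h and no counterpart in the other lists. The strongest T3 6 h peak of the locus, chr14:80877661-80879210, had a signal of 11 and was in no other list. A further T3 24 h peak, with a signal of 23.8, lay at the promoter of GTF2A1, a subunit gene of a general transcription factor.

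SLC26A4, which encodes pendrin, spans chr7:107660828-107717809 on the plus strand and was the member with a peak on its promoter. That T3 24 h peak, chr7:107660417-107662044, had replicate signals of 9.86 and 10.1, a sum of 19.98 and rank percentile 80.6. The first replicate summit lay 346 bp after the SLC26A4 start. The second lay 939 bp after it, and 31 bp from the start of the antisense RNA gene SLC26A4-AS1, whose promoter the peak also covered. The peak nearest to the SLC26A4 start lay 24.7 kb away in the T3 6 h list and 82.5 kb away in the vehicle list.

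The SLC26A4 promoter is shown as the one touched among the members, 250 bases before the start on the plus strand, chr7:107660578-107660827, with TATAAA in capitals.
SLC26A4: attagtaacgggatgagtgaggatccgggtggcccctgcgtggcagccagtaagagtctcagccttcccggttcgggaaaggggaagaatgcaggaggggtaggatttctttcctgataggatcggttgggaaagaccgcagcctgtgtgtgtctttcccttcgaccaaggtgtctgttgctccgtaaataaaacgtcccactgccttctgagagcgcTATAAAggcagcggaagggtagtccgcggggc

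That hexamer lies at bases 219 to 224, and 11.5% of all promoter windows hold it on either strand. Within SLC26A4 the T3 24 h list had a narrow peak of 192 bp, chr7:107715659-107715850, with replicate signals of 8.47 and 8.02. The T3 6 h list had another, chr7:107685003-107685866, with replicate signals of 5.545 and 3.455 and summits 551 bp apart. These inner peaks did not overlap, so the lists shared no site inside the gene. The single site that all 3 lists shared at any of the loci was here, 25.9 kb beyond the SLC26A4 end at the promoter of CBLL1, a gene for a ubiquitin ligase. Its signal was 24.8 at T3 24 h (rank percentile 90.02), 9.34 at T3 6 h (24.6) and 9.66 in vehicle (42.25). At the common promoter region of COG5, DUS4L and DUS4L-BCAP29 the signal was 15.65 at T3 24 h and 10.45 at T3 6 h, and vehicle had no peak. A T3 24 h peak with a signal of 18.8 marked the promoter of BCAP29.

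SLC5A5, the sodium iodide symporter, spans chr19:17871945-17895174 on the plus strand and had no peak at either end. Its only peak in any list, chr19:17880661-17881734 at T3 24 h, lay 8.95 kb after the start, with replicate signals of 5.36 and 3.55. At rank percentile 14 and an irreproducible discovery rate (IDR, the authors' measure of replicate disagreement) of 0.038, it was a weak peak of that list. The replicate summits were 223 bp apart. A flanking site in both T3 lists, 89.7 kb beyond SLC5A5 and inside KCNN1, a potassium channel gene, had a signal of 13.1 at T3 24 h and 10.5 at T3 6 h. The T3 24 h list also had 2 peaks at CCDC124, with signals of 15.4 and 9.36. The nearest vehicle peak lay 907 kb from SLC5A5, a distance at percentile 84.05 among all protein-coding genes.

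The SLC5A5 promoter, printed because its window was touched in no list, is given as 250 bases before the start on the plus strand, chr19:17871695-17871944. Capitals mark CCGCCC, the GC box GGGCGG read on the other strand, and CCAAT.
SLC5A5: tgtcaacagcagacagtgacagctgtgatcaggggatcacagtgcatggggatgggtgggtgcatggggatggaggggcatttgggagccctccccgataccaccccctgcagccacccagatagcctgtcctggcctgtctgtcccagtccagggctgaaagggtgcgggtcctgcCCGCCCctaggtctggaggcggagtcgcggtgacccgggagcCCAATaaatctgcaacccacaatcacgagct

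The 4 DUOX genes lie together on chromosome 15 as pairs that start back to back, DUOX2 with DUOXA2 and DUOXA1 with DUOX1. No list had a peak within 1 kb of any of these 4 starts. A stretch of 44.3 kb, chr15:45118382-45162716, held no peak of any list and covered the starts of DUOXA1 and DUOX1. A shorter one of 4.555 kb, chr15:45113609-45118163, covered the starts of DUOX2 and DUOXA2. In the T3 6 h list the gap around the starts was 179 kb and in the vehicle list 1223 kb. Those lists are short: the median protein-coding gene had its nearer boundary 50560 bp from a T3 6 h peak and 208530 bp from a vehicle peak. By that distance the DUOX genes stood at percentiles from 14.3 to 52.0 at T3 6 h and from 73.3 to 75.5 in vehicle.

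The sequences between the back-to-back starts are shown as the shared promoters that no list touched. They are given on the plus strand, 153 bases between DUOX2 and DUOXA2 at chr15:45114173-45114325 and 114 bases between DUOXA1 and DUOX1 at chr15:45129880-45129993. Capitals mark TATAAA in the first and CCGCCC, the GC box on the other strand, in the second.
DUOX2/DUOXA2: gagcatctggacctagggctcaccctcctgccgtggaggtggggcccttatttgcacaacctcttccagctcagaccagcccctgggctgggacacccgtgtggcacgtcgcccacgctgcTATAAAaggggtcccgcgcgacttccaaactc
DUOXA1/DUOX1: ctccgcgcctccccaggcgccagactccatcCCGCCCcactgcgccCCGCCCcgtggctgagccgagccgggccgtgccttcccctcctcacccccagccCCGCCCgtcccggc

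TATAAA lies at bases 122 to 127 of the first stretch, and the 3 GC boxes of the second at bases 32 to 37, 47 to 52 and 101 to 106. A GC box on either strand was in 45% of all promoter windows. AGGTCA was in the DUOXA1 window, outside the printed stretch, and in no window of DUOX1, DUOX2, DUOXA2, SLC5A5 or SLC26A4.

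The peaks of the DUOX cluster lay within or behind the genes. The T3 24 h list had 12, the T3 6 h list 1 and the vehicle list none. The gene-end peak, chr15:45118164-45118381, was 174 bp from the transcription end of DUOXA2 and 881 bp from that of DUOXA1, which face each other and overlap. It had replicate signals of 8.36 and 8.38 and rank percentile 70.8. DUOX2, the main oxidase of the thyroid, held 2 peaks at T3 24 h. Their signals were 11.3 at chr15:45112357-45113608, which lay 1.49 kb after the start, and 11.9 at chr15:45105573-45107271. DUOX1 held 1, chr15:45162717-45163479, with replicate signals of 6.80 and 8.83, 2.45 kb before its transcription end. The single T3 6 h peak, chr15:45168713-45169854, lay 3.36 kb beyond the DUOX1 end, had replicate signals of 3.15 and 8.07 and overlapped no T3 24 h peak. The strongest peak of the cluster at T3 24 h, chr15:45061283-45061647, had a signal of 20.8 and lay 31.1 kb below DUOX2. Of the flanking T3 24 h peaks, 1 lay at an end of SORD, the sorbitol dehydrogenase gene, and 2 at ends of SHF, an adaptor protein gene. The histidine tRNA genes TRH-GTG1-7, TRH-GTG1-8 and TRH-GTG1-9 lay within 2 of the T3 24 h peaks near SHF, with signals of 17.5 and 14.1. All 12 sites of the T3 24 h list were absent from the other lists, as were 88.4% of all T3 24 h peaks.

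TG, the thyroglobulin gene, spans chr8:132866958-133134899 and is the longest member at 268 kb. No list had a peak at either boundary, and the nearest, at T3 24 h, lay 3.89 kb inside the higher-coordinate one. Around the lower-coordinate boundary 65.5 kb were free of peaks of any list. Inside the gene lay 12 peaks at T3 24 h, 3 at T3 6 h and none in vehicle. That is 4.48 per 100 kb of gene at T3 24 h and 1.12 at T3 6 h. The 12 signals ran from 7.96 to 27.2. Of these peaks 6 stood at rank percentile 60 or higher, and these followed each other between 124.6 and 183 kb from the lower boundary. Outside that stretch the inner peaks were weaker, 4 of them below rank percentile 25. The strongest, chr8:133049571-133050127, had replicate signals of 12.7 and 14.5, rank percentile 93.3 and summits 8 bp apart. It lay inside SLA, a gene for an adaptor of lymphocyte receptors that sits within TG, as did 4 of the 12 in all. Peak chr8:133036856-133037268, with a signal of 20.4, was 384 bp from a boundary of SLA, so it lay at a gene end of SLA as well as inside TG.

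Just 1 of the sites inside TG was in both T3 lists. At T3 24 h, chr8:133099071-133099757 had replicate signals of 3.49 and 5.07 and stood at rank percentile 9.32. At T3 6 h, chr8:133098402-133100214 had 3.54 and 7.74 and stood at 73.0, with summits 1333 bp apart. The other T3 6 h peaks inside TG had signals of 12.01 at chr8:132935770-132937147 and 10.7 at chr8:133105406-133106857. Among the flanking peaks, chr8:133217751-133218401 had a signal of 24.0 at T3 24 h (rank percentile 88.8), with a vehicle counterpart at 9.76 (rank percentile 45.6) and none at T3 6 h. The other vehicle peak of the locus, chr8:132832968-132834228, had a signal of 9.62 and no counterpart. Where the ends of PHF20L1 and TMEM71 meet, a T3 24 h peak had replicate signals of 8.02 and 14.96, and a T3 6 h peak 3.76 and 8.79. A T3 24 h peak with a signal of 11.9 lay at an end of CCN4, a gene for a secreted matricellular protein.

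IYD, the iodotyrosine deiodinase, spans chr6:150369012-150405969 and had an inner site in both T3 lists. At T3 24 h, chr6:150377230-150377700 had replicate signals of 7.90 and 8.83, rank percentile 70.7 and summits 128 bp apart. At T3 6 h, chr6:150377032-150377634 had 3.79 and 5.31, rank percentile 15.9 and summits 160 bp apart. The positions were 8.36 kb from the lower-coordinate boundary at T3 24 h and 8.34 kb from it at T3 6 h. A flanking site 66.6 kb below the gene was also in both, with a signal of 11.8 at T3 24 h and 9.59 at T3 6 h. The nearest vehicle peak lay 915 kb from IYD, a distance at percentile 84.1 among all protein-coding genes. The other 6 T3 24 h peaks of the locus, all flanking, had signals of at most 11.3.

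**Figure D3:**
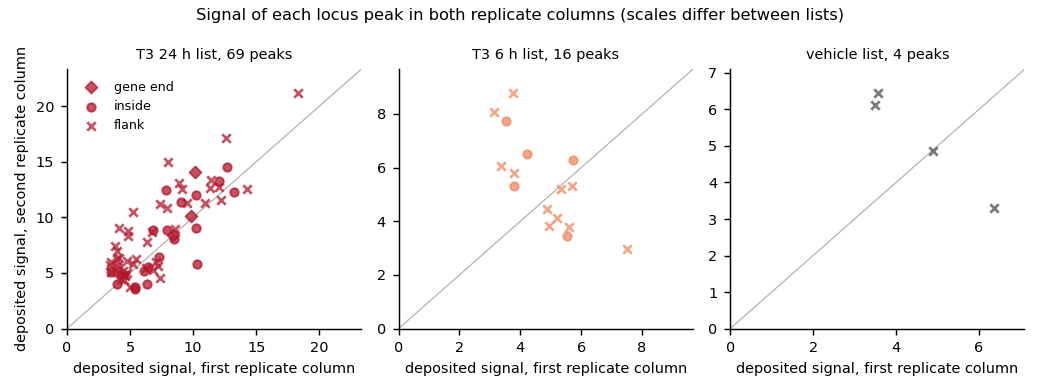
Each point is a peak of the 6 loci, with the signal of the first replicate column on the x axis and that of the second on the y axis, in panels for the T3 24 h, T3 6 h and vehicle lists, symbols for the place of the peak and a diagonal where both are equal. The signal is the authors' value with no stated normalisation, so distances between panels are not differences in accessibility. In the T3 24 h panel 50 of 69 peaks are higher in the second column, in the T3 6 h panel 8 of 16 and in the vehicle panel 2 of 4. Over the whole lists the shares are 64.7% at T3 24 h, 65.0% at T3 6 h and 59.4% in vehicle.

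The replicates differed by a median ratio of 1.23 for the 69 T3 24 h peaks of the loci, 1.504 for the 16 T3 6 h peaks and 1.78 for the 4 vehicle peaks. Over the whole lists these ratios, the larger signal over the smaller, were 1.25 at T3 24 h, 1.38 at T3 6 h and 1.285 in vehicle. Summits of the replicates lay within 100 bp in 46 of 69 T3 24 h peaks, 3 of 16 T3 6 h peaks and 1 of 4 vehicle peaks. Over the whole lists the shares were 70.5% at T3 24 h, 29.4% at T3 6 h and 38.3% in vehicle. At an IDR of at most 0.01 stood 49 of the 69 T3 24 h peaks (70.6% of the whole list), 3 of the 16 T3 6 h peaks (32.7%) and none of the 4 vehicle peaks (43.5%). The median rank percentile of their peaks was 54.3 at T3 24 h, 45.3 at T3 6 h and 43.9 in vehicle.

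**Figure D4:**
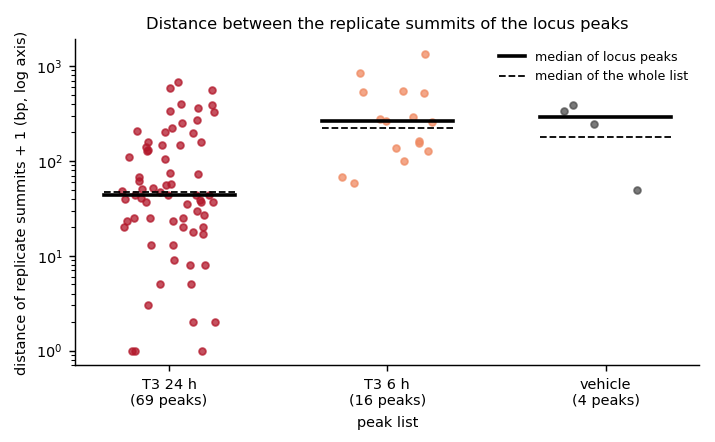
Each point is a peak of the 6 loci, in columns for the T3 24 h, T3 6 h and vehicle lists, with the distance between its replicate summits plus 1, in bp, on a log axis; solid lines are medians of these peaks and dashed lines medians of the whole lists. The medians of the distance over the loci are 43 bp at T3 24 h, 260.5 bp at T3 6 h and 291.5 bp in vehicle.

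Sharing between lists at the loci is given beside that of the whole lists. Of the 69 T3 24 h peaks, 3 (4.35%) were shared with vehicle, an overlap of at least 50% of the shorter peak, where 4.05% of the whole list were. The same 3 are 75% of the 4 vehicle peaks, where 33.65% of the whole vehicle list were shared with T3 24 h. Between T3 6 h and vehicle 1 site was shared, 6.25% of the T3 6 h peaks and 25% of the vehicle peaks, where the shares were 19.2% of the whole T3 6 h list and 33.2% of the whole vehicle list. Between T3 24 h and T3 6 h 9 were shared, 13.0% of the T3 24 h peaks and 56.25% of the T3 6 h peaks, where the shares were 10.2% of the whole T3 24 h list and 49.3% of the whole T3 6 h list. In no other list were 58 of the T3 24 h peaks (84.1%, against 88.4% of the whole list), 7 of the T3 6 h peaks (43.8%, against 44.5%) and 1 of the 4 vehicle peaks (25%, against 55.6%). The counts of peaks in no other list lay near the shares of the whole T3 24 h and T3 6 h lists, and 4 vehicle peaks are too few to read.

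Promoters with more GC, up to class 8 of 10, were touched by T3 24 h peaks more often, so the members' promoters were set beside promoters of like GC content. Across the classes the share of protein-coding promoters touched at T3 24 h ran from 8.61% in the lowest to 78.4% in class 8. SLC26A4, at 57.7% GC, belonged to a class with 58.6% touched. TSHR at 60%, DUOX2 at 60.3% and DUOXA2 at 61.3% belonged to a class with 64% touched, and SLC5A5 at 63.7% to one with 70.5%. DUOX1 at 73.0% GC and DUOXA1 at 75.3% belonged to a class with 75.4% touched, and an inner DUOXA1 start at 49.3% to one with 26%. Apart from that inner start, the untouched windows of the 6 genes other than SLC26A4 lay in classes where most promoters had a T3 24 h peak. The windows of DUOX2 and DUOXA2 overlap, as do those of DUOX1 and DUOXA1 at their back-to-back starts. The classes match GC content alone, and the part of base composition was not tested.

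**Figure D5:**
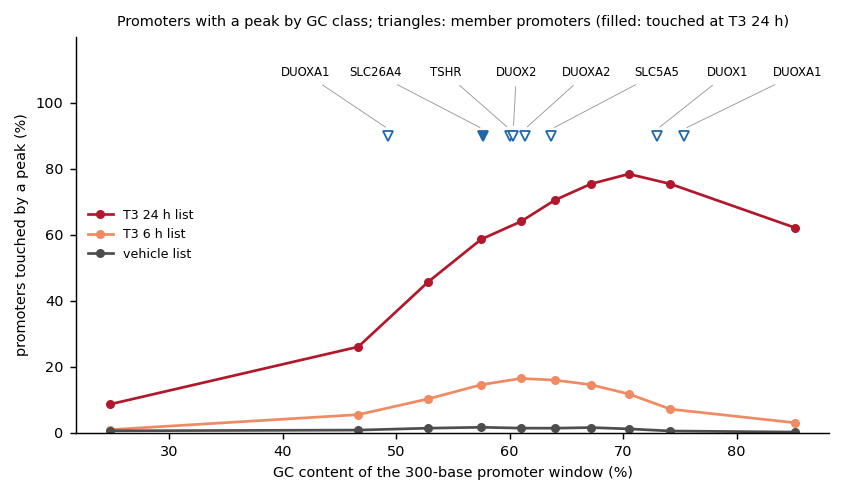
Lines give the percentage of protein-coding RefSeq promoter windows touched by a peak, for 10 classes of GC content, in the T3 24 h, T3 6 h and vehicle lists. Triangles, set at an arbitrary height, mark the GC content of the 8 member promoters, and the filled one, SLC26A4, was touched at T3 24 h.

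Peak numbers around the genes differed, and for TG and TSHR the percentile among all genes was lower when counted per 100 kb. TG had 21 T3 24 h peaks in the gene or within 100 kb, more than most genes (percentile 98.4 among all protein-coding genes), but per 100 kb of that window its 4.49 peaks stood at percentile 70.3. TSHR had 12 (percentile 77.2, and 45.6 per 100 kb), SLC5A5 had 10 (64 and 70.1) and IYD had 8 (48.3 and 50.7). SLC26A4 had 6, at percentile 32.3 and 31.5 per 100 kb, and was the sparsest of the 9 in the T3 24 h list by either measure. In the T3 6 h list SLC26A4 had 3, at percentile 87.7 and 87.1 per 100 kb, and 0 of these stood at an IDR of at most 0.01. TG was higher there, with 6 at percentile 99.05 and 88.7 per 100 kb. TSHR, SLC5A5 and IYD had 2 each, at percentile 72.8, and the DUOX genes 1 each, at 48.1. At T3 24 h the DUOX genes had 11 or 12 peaks each, at percentiles from 71.0 to 77.2 and from 72.4 to 87.3 per 100 kb, and share nearly all of them.

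Of 49 other genes that serve the same pathway, 32 had a gene-end peak at T3 24 h (60.8% of all genes), 9 at T3 6 h (10.8%) and none in vehicle (1.34%). Thyroglobulin folding genes of the endoplasmic reticulum had one in 8 of 9 at T3 24 h, with HSP90B1, a chaperone, at a signal of 37.2 and PDIA4, a disulphide isomerase, at 35.75. At T3 6 h PDIA4 alone of these had one, at 13.3. Genes of the thyrotropin signal, which runs from G proteins through cyclic AMP to kinases and CREB factors, had one in 9 of 12 at T3 24 h and in 5 of 12 at T3 6 h. CREB1, a transcription factor of this branch, had a signal of 28.1 at T3 24 h and 9.38 at T3 6 h, and its relative CREM had 24.7 at T3 24 h and 8.96 at T3 6 h. PRKAR1A and PRKACB, subunits of protein kinase A, had 19.9 and 18.05 at T3 24 h and 12.3 and 11.8 at T3 6 h. The peak of ADCY9, an adenylate cyclase, lay at different ends of the gene in the T3 24 h and T3 6 h lists.

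Peroxide handling genes had a gene-end peak in 5 of 7 at T3 24 h and 1 of 7 at T3 6 h. CAT, the catalase, had a signal of 28.5 at T3 24 h. TXNDC11, a binding partner of the DUOX proteins, had 26.05 at T3 24 h and 10.15 at T3 6 h. Iodide and ion handling genes had one in 4 of 8 at T3 24 h, led by the chloride transporters CLCN3 at 32.5 and CLCN5 at 28.0, and none at T3 6 h. Uptake and cleavage genes had one in 4 of 9 at T3 24 h and 2 of 9 at T3 6 h. SORT1, a sorting receptor, had a signal of 24.8 at T3 24 h and 9.95 at T3 6 h. The protease gene LGMN had 22.03 at T3 24 h and 9.57 at T3 6 h, at different ends of the gene. Hormone release and conversion genes had one in 2 of 4 at T3 24 h, among them the transporter gene SLC16A10 at a signal of 16.03, and none at T3 6 h.

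The thyroid label could not be checked on markers of cell identity, since a gene-end peak is not expression and 13 of 23 markers of all cell types had one at T3 24 h, near the 60.8% of all genes. Of the 23, 2 had one at T3 6 h, where 10.8% of all genes did, and in vehicle none, where 1.34% did. All 4 thyroid follicular factors, PAX8, NKX2-1, FOXE1 and HHEX, had a gene-end peak at T3 24 h, with signals from 11.1 to 19.3, and PAX8 had one at T3 6 h. Epithelial genes had one in 3 of 5 at T3 24 h, where KRT8 and KRT18 share a peak, and 1 of 5 at T3 6 h. The T3 6 h one was at KRT8, at the other end of the gene from the shared T3 24 h peak. Mesenchymal genes had one in 3 of 5 at T3 24 h, endothelial genes in 1 of 3, blood genes in 2 of 4 and parafollicular C cell genes in none of 2, and none of these had one at T3 6 h. The part of other cell types in the counts of the 9 genes was not tested.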

How the data were processed

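ATAC-seq peaks of 3 groups of 2 samples (T3 24 h, T3 6 h, vehicle) were analysed from 3 deposited lists, 1 per group, made from both replicates. Tools named without settings in the submitters' processing notes are Bowtie2, MACS2, DiffBind, Trim Galore and CASAVA 1.7, with the build hg38. The Tn5 shift and how duplicates were treated: not given in the sources used here. Columns (20 per list) follow the IDR layout. The score the authors deposited is a scaled IDR that runs from 540 to 1000, and the deposited −log10 of the IDR puts every peak at 0.05 or less. The deposited signal is the sum of both replicate signals, with a normalisation that is not stated, so it was ranked only within a list. The replicate columns carry no sample names. The authors' summit offsets gave each replicate's summit. The lists hold no read counts, p-values or q-values, so depth is unknown.

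Gene boundaries came from RefSeq GRCh38.p14 without strand. The planned promoter class was read as either gene end, and transcription starts were used for the 7 members in the RefSeq promoter table. Counts were made with Python 3.11.15, numpy 2.4.6 and pandas 2.3.3, and tested on simulated data. Coordinates are 1-based.

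Named were all 9 genes with each peak at an end or inside, the strongest flanking peak per list and locus, peaks in several lists, genes at whose end a flanking peak lay, and pathway genes with a T3 6 h or vehicle gene-end peak or the 2 highest T3 24 h signals of their sub-list. A few other flanking peaks were chosen after their values were seen. Some items that this rule selects are not reported here. The members, lists and alternatives were chosen with earlier results of these data known. The alternatives were other limits for a gene end, IDR, summit distance, overlap and window, lists of equal length, and single replicate columns. Genes within 25% of a member's length and classes of promoter GC content were also used as backgrounds, both chosen after seeing the data.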

Additional observations from a re-analysis of the deposited data

How the results depend on the processing

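No paired analysis was possible because each group has 1 list and its replicate columns carry no sample numbers. Of 117 values under alternatives, 68 stayed within 1.5 times the reported count, or for a percentile within its binomial confidence interval, and 49 did not. The vehicle list itself set the equal length of 7103 peaks. Its counts in the equal lists could therefore not change, and they are among the 68. The count of members with a gene-end peak in the T3 6 h and vehicle lists was 0 under every alternative tried. The share of all genes under these ran from 3.14% to 12.5% at T3 6 h and from 0.32% to 1.89% in vehicle. Cuts by IDR, summit distance or list length and the limit of 500 bp can only remove peaks from a count. Under them a count of 0 could not change. In the T3 24 h list the count was 4 as reported, and 1 (DUOXA2) with a limit of 500 bp against 52.6% of all genes. With the lists cut to an equal 7103 peaks by summed signal it was 1 (TSHR) against 16.6%. It was 2 of 7 against 64.9% when the RefSeq start replaced either boundary, an alternative chosen after seeing the data. With a limit of 2 kb it was 6 against 67.6%, and with any overlap of the 1 kb window 5 against 64.5%. At an IDR of at most 0.01 it was 4 against 55.1%, and with summits within 100 bp 3 against 43.5%. By the midpoint of the peak it was 4 against 60.9%. With equal lists ranked by the first replicate column it was 0 against 16.4%, and by the second 1 against 16%. For the limit of 500 bp and the RefSeq start the share over all genes moved little from 60.8%, and the cause was not tested.

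Members with an inner peak numbered 2 of 9 at T3 24 h in the equal lists, against 8.46% of all genes (single columns 1 to 2). At T3 6 h they numbered 1 at an IDR of at most 0.01 (4.56% of all genes), 0 with summits within 100 bp (4.28%) and 1 in the equal lists (7.97%, single columns 1 to 2). With 9 genes these counts are too small to read against the shares. Locus peaks numbered 11 at T3 24 h in the equal lists (single columns 7 to 11) and 25 within 10 kb. At T3 6 h they numbered 3 at an IDR of at most 0.01, 3 with summits within 100 bp, 8 in the equal lists (single columns 8 to 9) and 6 within 10 kb. In vehicle they numbered 0 at an IDR of at most 0.01, 1 with summits within 100 bp and 0 within 10 kb. Other pathway genes with a gene-end peak numbered 12 of 49 at T3 24 h in the equal lists (16.6% of all genes; single columns 11 to 12), 4 at T3 6 h at an IDR of at most 0.01 (3.59%), 3 at T3 6 h with summits within 100 bp (3.14%), and 1 in vehicle with a limit of 2 kb (1.89%). Counts of shared peaks stayed within 1.5 times under both other overlap rules.

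The percentile of a gene's T3 24 h peak number has no replicate spread. A change counted as a move when it left the binomial confidence interval of the percentile over all protein-coding genes, and every one did. With a window of 50 kb it was 97.6 for TG, 82.2 for TSHR and SLC5A5, 27.5 for SLC26A4 and IYD, 74.6 for DUOX2, DUOXA2 and DUOX1, and 64.8 for DUOXA1. Per 100 kb of window it was 70.3 for TG, 45.6 for TSHR, 70.1 for SLC5A5, 31.5 for SLC26A4, 82.5 for DUOX2, 87.3 for DUOXA2, 84.8 for DUOXA1, 72.4 for DUOX1 and 50.7 for IYD. Depth is unknown, so a site missing from a shorter list cannot be told from a closed site.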
